A study of Saccharomyces cerevisiae with 3 samples.

Results

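The windows described here are 150-bp stretches of the yeast genome that were well covered by nucleosome-sized DNA fragments in only 1 of 2 replicates of *dst1∆* chromatin. Fragments left after digestion by micrococcal nuclease (MNase) were sequenced in 3 *Saccharomyces cerevisiae* libraries of the BY4741 background. In 2 of them the template was formaldehyde-fixed chromatin of exponentially growing *dst1∆* cells, which lack *DST1*, the gene of the transcription elongation factor TFIIS. In the third it was protein-free (naked) DNA of the wild type, cut with MNase after extraction and recovered at a similar fragment size. Wild-type chromatin was not analysed here, and both replicates carry the deletion, so no difference between them is an effect of it. *dst1∆* replicate 1 and naked DNA were read as intervals of 36 bp and, by the paper's account, in the same run. Replicate 2 came from another instrument with longer reads, given as intervals of 46 bp. A likeness of replicate 1 to naked DNA cannot be told apart from this shared run. A difference between the replicates and a difference between these runs therefore cannot be told apart. Nothing in the labels says whether the replicates came from separate cultures.

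MNase cuts the linker DNA between nucleosomes and leaves the DNA wrapped around histones as fragments of nucleosomal length. It also prefers some sequences over others, so that naked DNA gives its own pattern of protected and cut stretches. Promoters in yeast often hold a nucleosome-depleted region with MNase-sensitive particles, which appear or vanish with the degree of digestion. TFIIS helps stalled RNA polymerase II to resume transcription through chromatin.

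Windows were tiled over the 16 nuclear chromosomes, and each read was counted at the expected fragment centre, 73 bp inward from its start, with at most 10 reads per strand position. The count of a window divided by the mean window count of its library is called its level, so that a level of 1 is the average of all windows. Of 80303 windows, 74905 had a naked DNA level of at most 4. Windows were chosen among these where 1 *dst1∆* replicate had a level of at least 1 and at least 4 times the level of the other. This gave 2917 windows, of which 1421 were high in replicate 1 (1.90% of the 74905) and 1496 were high in replicate 2 (2.00%). They are called replicate 1-high and replicate 2-high windows. Their levels in the *dst1∆* libraries were selected on, so these are given as a description, with no test. With 1 naked DNA library and 2 *dst1∆* libraries of unlike runs, no other comparison was tested either, and the 95% intervals are exact binomial intervals that cover counting error only.

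The files held 10776646 and 9047739 nuclear reads for *dst1∆* replicates 1 and 2 and 16618987 for naked DNA, a coverage of 32.2-fold, 34.6-fold and 49.7-fold. The mean window held 96.6, 83.5 and 131 counted reads. A stretch of 5 windows on chromosome VII, the chromosome that carries *DST1* (sacCer2, 417601 to 418350), had 6 and 0 counted reads in the *dst1∆* replicates, against 1155 in naked DNA. It contains the only window in the genome that was empty in both replicates while its naked DNA level was at least 0.5.

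In replicate 1-high windows, the median level was 1.67 in *dst1∆* replicate 1 and 0.275 in *dst1∆* replicate 2, against 2.31 in naked DNA. The middle 80% of these windows ran between 1.09 and 3.69 in replicate 1, 0.0958 and 0.635 in replicate 2, and 0.268 and 3.72 in naked DNA. In replicate 2-high windows, the median level was 0.342 in *dst1∆* replicate 1 and 1.92 in *dst1∆* replicate 2, against 0.268 in naked DNA. Here the middle 80% ran between 0.155 and 0.652 in replicate 1, 1.16 and 3.26 in replicate 2, and 0.0382 and 0.922 in naked DNA. Over all 74905 windows the medians were 0.652 and 0.730 in the *dst1∆* replicates and 0.375 in naked DNA. The naked DNA level, which entered the choice only as an upper limit, was thus above the general median in windows of the first kind and below it in windows of the second kind.

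The median ratio between the replicates was 5.88 in replicate 1-high windows and 5.13 in replicate 2-high windows. A ratio of at least 8 was reached by 421 (29.6%) and 271 (18.1%) of them. In 9 replicate 1-high windows, *dst1∆* replicate 2 had no read at all, while no replicate 2-high window was empty in replicate 1. Replicate 2 also had more empty windows at large, 3709 of all 74905 against 3259 in replicate 1. Of all 80303 windows, 3145 were empty in both replicates and could not be chosen. The lower replicate had a level of at least 1 in 24 and 23 windows. This rarity follows from the choice, since it needs a level of at least 4 in the higher replicate. The 90th percentiles of the higher replicate were 3.69 and 3.26.

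At the edge of the choice, replicate 1-high windows at IV:63901-64050 and XVI:187351-187500 were just inside, with 199 and 125 counted reads in replicate 1 and 43 and 27 in replicate 2, ratios of 4.0. Just outside were XII:131851-132000 and XVI:353101-353250, each with 185 reads in replicate 1 and 40 in replicate 2. In the other direction, IV:523801-523950 and II:461251-461400 were just inside, with 48 and 61 reads in replicate 1 and 166 and 211 in replicate 2. IX:24601-24750 and VII:936751-936900 were just outside, each with 59 and 204 reads. The counting interval of the ratio at IV:63901-64050 was 2.87 to 5.70, so windows near the limit on both sides did not differ from each other beyond counting error.

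The replicate 1-high share rose with the naked DNA level, which the choice partly sets. A window must reach a level of 1 to be chosen. The median level of replicate 1 rose from 0.217 in the lowest naked DNA range to 1.97 in the highest. Shares among windows at a level of at least 1 were not computed by range. The share of windows that were replicate 1-high was 0.188% where naked DNA was below 0.1, 0.774% between 0.1 and 0.25, 0.797% between 0.25 and 0.5 and 0.915% between 0.5 and 1. Above the genome average it was 2.82% (1 to 2), 7.77% (2 to 3) and 15.2% (3 to 4, 95% interval 13.9 to 16.5%). Of the 1421 windows, 790 (55.6%) had a naked DNA level of at least 2, against 9.63% of all 74905. The upper limit on naked DNA cut through this group: among the 5398 windows above it, 866 (16%) met the same conditions for replicate 1, and 5 (0.0926%) those for replicate 2.

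The replicate 2-high windows ran the other way. Their share was 3.05% (2.76 to 3.36%) where naked DNA was below 0.1, and 2.22%, 2.20%, 1.79%, 1.23%, 0.607% and 0.194% (0.0712 to 0.421%) in the following ranges. A naked DNA level below 0.1 was found for 389 of 1496 windows (26%, 23.8 to 28.3%), against 24 of 1421 replicate 1-high windows (1.69%) and 17.0% of all 74905. In 12 of the 1496 replicate 2-high windows naked DNA had no read, against 3422 of all 74905, which is a larger share. Windows empty in all libraries cannot be chosen. The *dst1∆* libraries themselves differed in this respect over the whole genome. Over all windows of the highest naked DNA range, replicates 1 and 2 had median levels of 1.97 and 1.25, and over those of the lowest range 0.217 and 0.251.

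**Figure D1:**
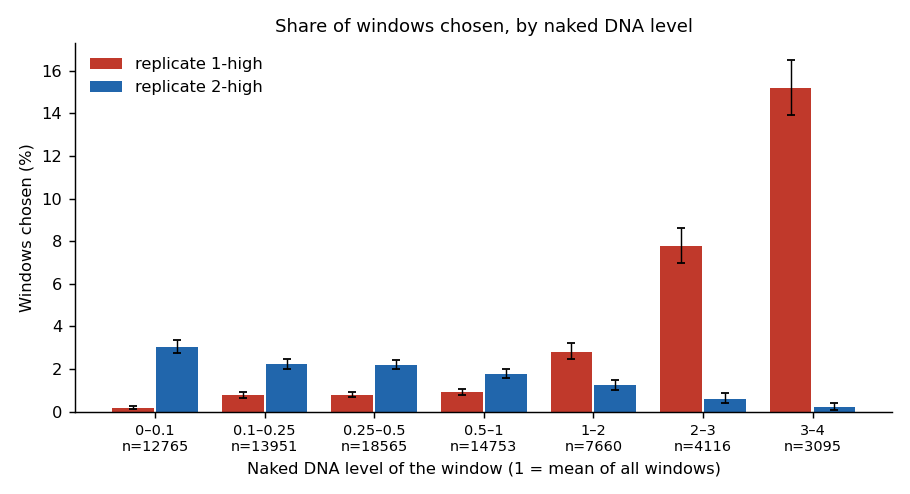
Share of windows chosen (%) in each range of naked DNA level, for replicate 1-high (red) and replicate 2-high (blue) windows. n is the number of windows in the range, and the bars are exact 95% binomial intervals (counting error only). The replicate 1-high share is 15.2% in the highest range, and the replicate 2-high share is 3.05% in the lowest range and 0.194% in the highest.

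How close each replicate lay to naked DNA was also read off, although the chosen levels partly set it. In replicate 1-high windows, the level of replicate 1 was within a factor of 2 of the naked DNA level in 937 windows (65.9%) and that of replicate 2 in 221 (15.6%). In replicate 2-high windows, these shares were 52.7% for replicate 1 and 6.22% for replicate 2. Over all 74905 windows they were 54.2% and 41.6%, and over those with replicate 1 at a level of at least 1 they were 61.5% and 45.8%.

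Profiles around the window centres extended beyond the 150 bp that the choice had used. Around replicate 1-high windows, the mean level per 51 bp at the centre was 1.90 in *dst1∆* replicate 1 and 0.307 in *dst1∆* replicate 2, against 1.95 in naked DNA. Replicate 2 was back at 1.16 and 1.11 at 180 bp to the left and 190 bp to the right, close to the usual repeat of yeast nucleosomes. At 500 to 1500 bp from the centre the means were 1.22 and 1.1 in *dst1∆* replicates 1 and 2 and 1.28 in naked DNA. The width of the dip in replicate 2 follows from the window size and the choice, while its flanks were close to average.

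Around 1464 replicate 2-high windows with complete flanks, the level at the centre was 0.390 in *dst1∆* replicate 1 and 2.24 in *dst1∆* replicate 2, against 0.341 in naked DNA. Replicate 2 was at 1.04 at 120 bp to the left and 1.09 at 120 bp to the right, and reached 1.16 at 170 to 200 bp on both sides. In replicate 1 the flanks stayed below average, with 0.787 and 0.788 at 200 bp to the left and 180 bp to the right, and the mean at 500 to 1500 bp was 0.835, against 0.839 in naked DNA and 1.00 in replicate 2. The surroundings of these windows were thus poorer in reads in both libraries of 36-bp intervals.

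**Figure D2:**
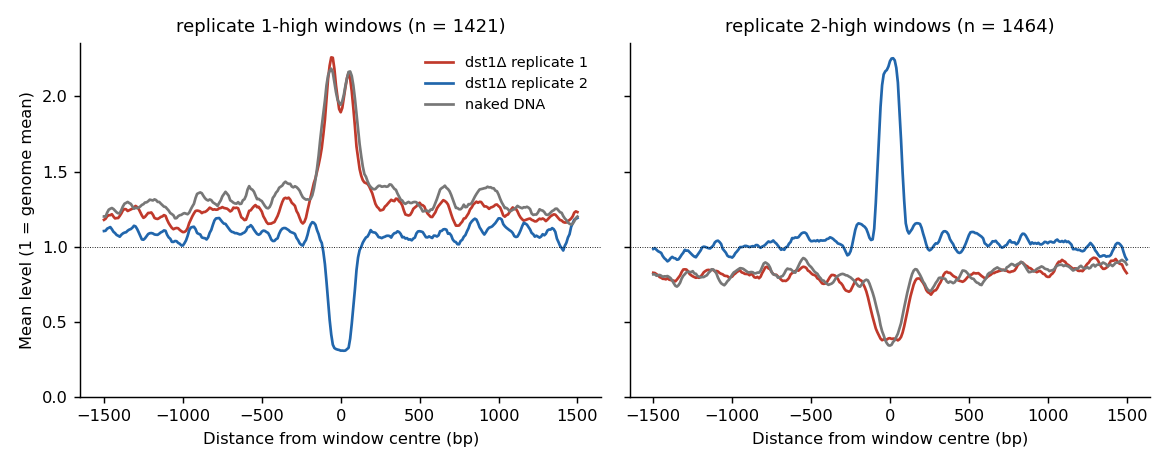
Mean level (1 = genome mean, smoothed over 51 bp) against the distance from the window centre (bp) in *dst1∆* replicate 1 (red), *dst1∆* replicate 2 (blue) and naked DNA (grey), for replicate 1-high windows (left) and replicate 2-high windows (right). The centre values follow from the choice of windows. On the left, replicate 2 drops to 0.307 between flanks above 1.1, and on the right, replicate 1 and naked DNA average 0.835 and 0.839 at 500 to 1500 bp.

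Most windows stood alone, although windows of the same direction lay side by side more often than their share of all windows. The next window was of the same direction in 5.98% of cases for replicate 1-high and 9.78% for replicate 2-high windows. Of all 74905 windows, 1.90% and 2.00% were of these kinds. Of the replicate 1-high windows 88.2%, and of the replicate 2-high windows 83.0%, had no neighbour of the same direction. Runs of at least 3 windows occurred 3 times among replicate 1-high and 30 times among replicate 2-high windows. Of the 3 replicate 1-high runs, all of 450 bp, XII:603601-604050 had mean levels of 4.10 and 0.575 in *dst1∆* replicates 1 and 2 and 2.66 in naked DNA. The longest replicate 2-high run, VIII:526501-527400 (900 bp), had mean levels of 0.585 and 5.22 in *dst1∆* replicates 1 and 2 and 1.07 in naked DNA. It lay 35.3 kb from a chromosome end.

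The naked DNA level was above the general median of 0.375 in all the replicate 1-high runs and in 3 of the 4 replicate 2-high runs described here. Among replicate 1-high runs, IV:368551-369000 (2.46 and 0.379 in the *dst1∆* replicates) and II:461401-461850 (1.55 and 0.128) had naked DNA levels of 2.32 and 2.25. Among replicate 2-high runs, IV:384001-384600 (0.945 and 7.38) and IV:437101-437700 (0.453 and 2.60) had naked DNA levels of 0.832 and 0.197. The run V:1501-2100 (0.321 and 3.38, naked DNA 0.826) lay 1.58 kb from the end of its chromosome.

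Summed over the window and both its neighbours, the replicates came closer together. The ratio over 450 bp was at least 2 in 792 of 1421 replicate 1-high windows (55.7%) and in 1108 of 1488 replicate 2-high windows with neighbours (74.5%), and at least 4 in 16.8% and 22.7%. It turned round, with the other replicate higher, in 108 (7.60%) and 35 (2.35%). Beside replicate 1-high windows, the other replicate had a neighbour at a level of at least 1 in 60.5% of cases, against 56.9% around all 74873 windows with neighbours. Beside replicate 2-high windows this was 34.6%, against 43.5%. A neighbour of the opposite direction, on either side, was found for 34 windows of each kind (2.39% and 2.29%). The same share around all windows was not computed.

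The reads behind the windows differed between the directions in how they were spaced. A fragment protected by a nucleosome gives a start on the Watson strand and a start on the Crick strand about 140 bp further on. Pairs of such starts were counted for every distance from 50 to 230 bp, and the pairs at 130 to 150 bp were divided by those at 60 to 100 bp. The choice of windows bears on this quotient. At 130 to 150 bp both starts count toward nearly the same place, mostly inside the chosen window. At 60 to 100 bp the second start often counts toward a flank that the choice did not use. The choice thus lowers the quotient of the low replicate and raises that of the high one, by an amount that was not measured. A low level also leaves fewer pairs. In replicate 1-high windows this quotient was 2.63 in *dst1∆* replicate 1 and 0.961 in *dst1∆* replicate 2, against 2.09 in naked DNA. The few reads of replicate 2 in these windows had no excess at nucleosomal length by this measure, which the choice itself lowers. In replicate 2-high windows it was 1.95 in *dst1∆* replicate 1 and 3.31 in *dst1∆* replicate 2, against 1.91 in naked DNA. Here all the libraries had the excess, the lower replicate included. Over all 74905 windows it was 2.48 and 3.05 in the *dst1∆* replicates and 2.17 in naked DNA. Naked DNA fragments had been cut from the gel at nucleosomal size, so that the excess alone does not tell a nucleosome from a resistant stretch of DNA.

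**Figure D3:**
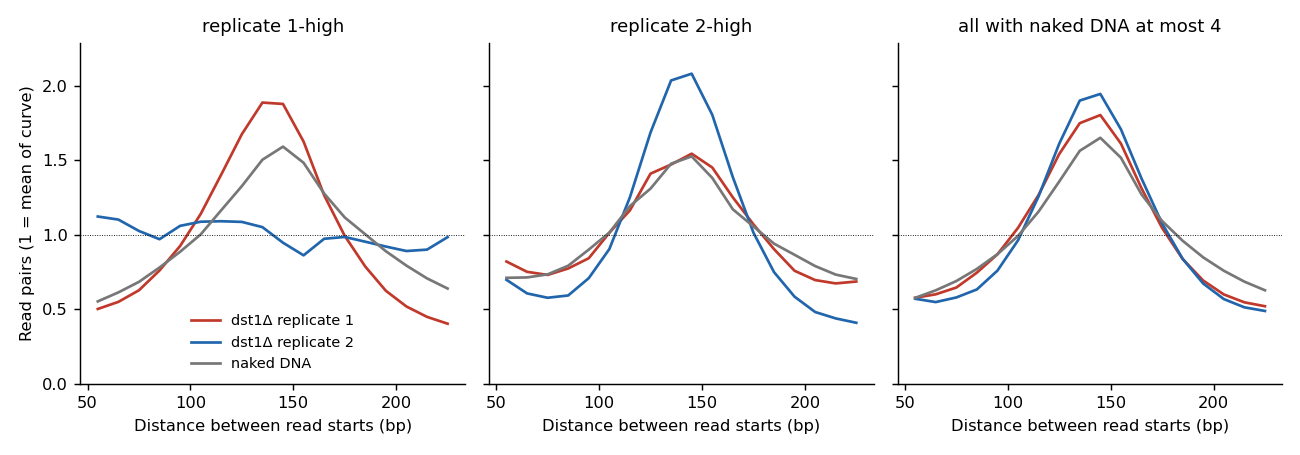
Number of read pairs on opposite strands (1 = mean of the curve) against the distance between their starts (bp, in steps of 10 bp), for replicate 1-high, replicate 2-high and all windows with a naked DNA level of at most 4. Colours are *dst1∆* replicate 1 (red), *dst1∆* replicate 2 (blue) and naked DNA (grey). Replicate 2 stays between 0.861 and 1.12 over replicate 1-high windows and has no peak there, while all other curves peak between 130 and 150 bp. At these distances the choice of windows lowers the curve of the low replicate and raises that of the high one.

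The replicate chosen as high also had the lower share of reads kept by the limit on repeats, which a larger number of reads per window brings with it. The limit of 10 reads per strand position kept 71.2% of the reads of *dst1∆* replicate 1 and 94.4% of those of replicate 2 in replicate 1-high windows. In replicate 2-high windows it kept 98.2% in replicate 1 and 70.1% in replicate 2. In naked DNA it kept 67.7% and 82.7% in the same windows. Over all 74905 windows it kept 90.4% and 84.1% in the *dst1∆* replicates and 80.1% in naked DNA. The high replicate had starts at 65.8 strand positions per replicate 1-high window and 52.7 per replicate 2-high window, and at most 50.9% of the reads of any library came from the Watson strand. Without molecular identifiers, copies made by PCR cannot be told apart from separate molecules.

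Windows of both kinds lay on every chromosome. The share ran between 1.28% on VI and 2.48% on V for replicate 1-high windows, and between 1.66% on XVI and 3.46% on I for replicate 2-high windows. Toward the chromosome ends the directions parted. Within 20 kb of an end lay 27 replicate 1-high windows (1.90%, 1.26 to 2.75%) and 214 replicate 2-high windows (14.3%, 12.6 to 16.2%), against 5.53% of all 74905. Within 5 kb the numbers were 2 (0.141%) and 73 (4.88%), against 1.39%. A window must reach a level of 1 to be chosen. Of windows at that level in replicate 1, 2.97% lay within 20 kb and 0.563% within 5 kb. For replicate 2 these shares were 4.44% and 0.977%. The replicate 1-high share within 20 kb was closer to 2.97% than to 5.53%. The replicate 2-high window with the highest level was the second window of chromosome III (III:151-300), with levels of 3.71 and 21.5 in *dst1∆* replicates 1 and 2 and 0.964 in naked DNA. Chromosome ends hold families of repeated sequence, and only reads placed unambiguously were kept, in libraries of unlike read length. The part of read length in this difference cannot be told apart from that of the samples.

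For genes, a table of transcription start sites (TSS) was complete for the first 300 kb of each chromosome and gave 1971 genes with 28957 windows. A window was called upstream when centred within 500 bp before a TSS, in the body when between a TSS and its polyadenylation site, and otherwise outside the listed genes. A window in a gene without a listed TSS thus counts as outside. Of 553 replicate 1-high windows in this stretch, 155 were upstream (28.0%, 24.3 to 32.0%), 335 in bodies (60.6%) and 63 outside (11.4%). Of 611 replicate 2-high windows, 143 were upstream (23.4%, 20.1 to 27.0%), 200 in bodies (32.7%) and 268 outside (43.9%, 39.9 to 47.9%). Of all 28957 windows, 17.9% were upstream, 64.4% in bodies and 17.7% outside. Of those with a level of at least 1 in replicate 1, 17.7% were upstream, 72.6% in bodies and 9.68% outside. For replicate 2 these shares were 17.2%, 68.8% and 13.9%. Both kinds were found upstream more often than windows at large at this setting, and the replicate 2-high windows fell outside the listed genes more often. Without the 20 kb at each end, the share outside was 10.5% of replicate 1-high and 33.1% of replicate 2-high windows, against 12.4% of all. The upstream excess was not kept at every setting. With levels relative to the median window, 19.9% of replicate 1-high windows were upstream, against 17.6% of all, and in windows of 300 bp 17.7% of replicate 2-high windows were, against 18.3%.

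The shares also differed by location within some ranges of naked DNA level. Where naked DNA was between 2 and 4, 94 of 623 upstream windows were replicate 1-high (15.1%, 12.4 to 18.1%), against 172 of 2032 body windows (8.46%, 7.29 to 9.76%). In the lower ranges these intervals overlapped, as below 0.5 (0.872%, 0.575 to 1.27%, against 0.725%, 0.571 to 0.908%). Where it was below 0.5, 122 of 3097 upstream windows were replicate 2-high (3.94%, 3.28 to 4.69%). So were 190 of 3638 windows outside the listed genes (5.22%, 4.52 to 6.0%), against 133 of 10341 body windows (1.29%, 1.08 to 1.52%). In the higher ranges the replicate 2-high intervals of upstream and body windows overlapped, as between 0.5 and 1 (1.32% against 1.16%). Windows outside the listed genes were also the most often replicate 2-high where naked DNA was between 0.5 and 1 (6.98%, against 1.16% of body windows). The same held between 1 and 2 (4.50%, against 0.756%). These windows need not be intergenic. Away from the 20 kb at each end, 1471 of 3305 of them (44.5%) lay over 2 kb from any listed TSS, as did 68 of 164 replicate 2-high ones (41.5%).

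By distance from the TSS, and as shares of all windows, both kinds were most frequent over the promoter. The replicate 1-high share was 3.36% between 500 and 300 bp upstream and 3.31% between 300 and 100 bp upstream, and 1.65% in the last 100 bp before the TSS. It was 2.73% in the first 100 bp of the transcribed region and 1.29% beyond 1000 bp. The replicate 2-high share was 2.11% between 500 and 300 bp upstream, 3.87% (2.98 to 4.93%) between 300 and 100 bp upstream and 1.90% in the last 100 bp. It was 2.90% in the first 100 bp of the transcribed region and 1.75% beyond 1000 bp. A window must reach a level of 1 to be chosen, and few did just before the TSS. In the last 100 bp, 141 of 1213 windows reached it in replicate 1 and 219 in replicate 2, with 20 and 23 chosen. In the first 100 bp after the TSS, 499 and 654 of 1207 did, with 33 and 35 chosen. Among windows at that level, the chosen share was thus higher before the TSS than after it. The stretch from 300 to 100 bp upstream is where the first nucleosome before the promoter gap is usually placed, and the first 100 bp after the TSS hold part of the first nucleosome of the gene.

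**Figure D4:**
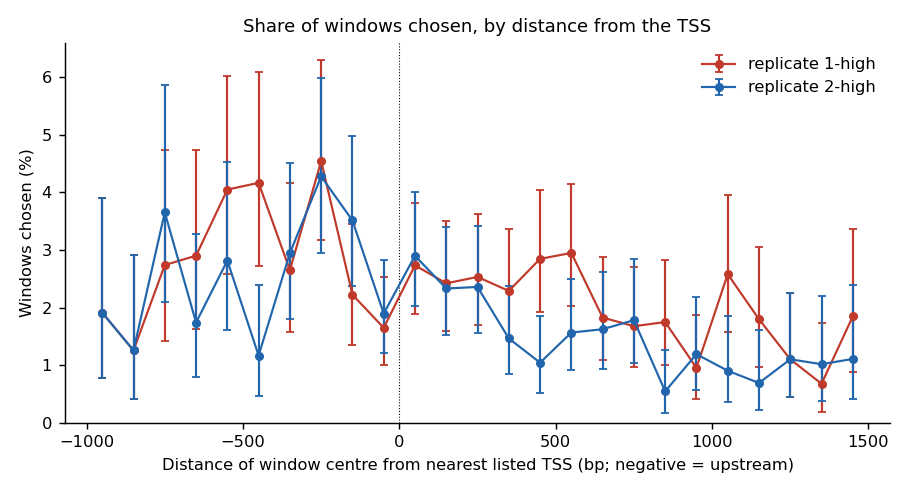
Share of windows chosen (%) in bins of 100 bp by the distance of the window centre from the nearest listed TSS (bp, negative upstream), for replicate 1-high (red) and replicate 2-high (blue) windows, with exact 95% binomial intervals (counting error only). Both curves are raised between 300 and 200 bp upstream of the TSS. Neighbouring bins overlap in their intervals nearly throughout.

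A replicate 1-high window lay within 500 bp upstream of 168 of the 1971 genes (8.52%) and a replicate 2-high window upstream of 156 (7.91%). Both were found for 4 of the 1971 genes, and the overlap that these shares alone would give was not computed. Among the gene lists, the ribosomal protein genes had the highest replicate 1-high share. These genes are among the most strongly transcribed genes of growing yeast and have wide nucleosome-depleted promoters, many of them bound by the activator Rap1. Of 57 ribosomal protein genes with a listed TSS, 15 (26.3%, 15.5 to 39.7%) had a replicate 1-high window upstream, and 0 had a replicate 2-high window, where the upper limit of the interval was 6.27%. With windows above the naked DNA limit that met the same conditions, the number was 27 of 57 (47.4%), against 14.0% of all genes. A window above the limit met these conditions upstream of 23 of the 57 genes.

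The 15 genes shared 14 windows, at 445 to 55 bp upstream of the TSS. The levels ran from 1.00 to 3.87 (median 2.31) in *dst1∆* replicate 1 and from 0.0120 to 0.790 (median 0.114) in *dst1∆* replicate 2, against 1.34 to 3.68 (median 3.26) in naked DNA. All the windows were above average in naked DNA, 11 of 14 with a level of at least 2. The emptiest in replicate 2 was upstream of *RPL25*, a protein of the large subunit (XV:79951-80100, 296 bp upstream), with 374 and 1 counted reads in *dst1∆* replicates 1 and 2 and 435 in naked DNA. *RPL17B* (174 and 1, naked DNA 454), *RPL27A* (104 and 1, naked DNA 337) and *RPL32* (97 and 1, naked DNA 175) likewise had a single read in replicate 2. *RPS24B*, of the small subunit, had 225 and 2 reads in the *dst1∆* replicates and 408 in naked DNA. The counting interval of the ratio reached down to 57.7 at *RPL25* and to 26.6 at *RPS24B*.

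The remaining ribosomal protein windows were less extreme. *RPL2A* had 157 and 4 reads in *dst1∆* replicates 1 and 2 and 457 in naked DNA. *RPL6A* had 184 and 11 (naked DNA 259), and *RPL17A* had 113 and 8 (naked DNA 248). The divergent pairs *RPP2A* and *RPS15* (282 and 23, naked DNA 475) and *RPL39* and *RPS22A* (221 and 25, naked DNA 417) each shared a window between them. *RPS21B* had 2 adjacent windows, with 372 and 337 reads in replicate 1 and 66 and 38 in replicate 2. *RPL22A* (292 and 41, naked DNA 440) and *RPL36B* (360 and 49, naked DNA 267) closed the list. Many ribosomal protein genes exist as near-identical pairs, and reads that could not be placed in 1 copy are missing from all libraries.

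The other long lists had lower replicate 1-high shares, some above and some below that of all genes. Genes listed as bound by Rap1 had a replicate 1-high window upstream in 65 of 415 cases (15.7%, 12.3 to 19.5%) and a replicate 2-high window in 17 (4.10%, 2.40 to 6.48%). For genes with a fragile promoter nucleosome (the nearest before the TSS, and easily lost on stronger digestion) the shares were 87 of 712 (12.2%) and 50 (7.02%). For genes with a TATA box they were 44 of 379 (11.6%) and 24 (6.33%), and for highly transcribed genes 16 of 133 (12.0%) and 8 (6.02%). For the general regulatory factors Abf1 and Reb1 they were 41 of 425 (9.65%) and 27 (6.35%), and 7 of 98 (7.14%) and 3 (3.06%). Genes with an asymmetric promoter nucleosome had 3 of 59 (5.08%) and 4 (6.78%). The lists overlap, since many ribosomal protein genes are also Rap1-bound and highly transcribed.

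Among upstream windows with a naked DNA level between 2 and 4 the order of the lists was partly different. Replicate 1-high were 10 of 21 such windows at ribosomal protein genes (47.6%, 25.7 to 70.2%), 48 of 167 at Rap1-bound genes (28.7%, 22.0 to 36.2%), 40 of 169 at TATA genes (23.7%, 17.5 to 30.8%) and 53 of 251 at genes with a fragile promoter nucleosome (21.1%, 16.2 to 26.7%), against 94 of 623 at all genes (15.1%, 12.4 to 18.1%). The share was 14 of 43 at highly transcribed genes (32.6%, 19.1 to 48.5%) and 6 of 23 at Reb1-bound genes (26.1%, 10.2 to 48.4%), above all genes here although Reb1-bound genes were below them before. It was 24 of 154 at Abf1-bound genes (15.6%) and 1 of 10 at genes with an asymmetric promoter nucleosome. Small lists gave few cases. Among 6 glycolytic genes with a listed TSS, *HXK2*, a hexokinase, had a replicate 1-high window (129 and 7 reads in *dst1∆* replicates 1 and 2, 430 in naked DNA). Among 6 heat shock genes, *HSP12*, a small membrane-associated stress protein, had one (225 and 24, naked DNA 329). None of 4 histone genes had a window of either kind upstream, and neither glycolytic nor heat shock genes had a replicate 2-high window there.

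The single promoters named next had the highest levels and are not typical of their kind. Over all replicate 1-high windows, the 90th percentile of the level in replicate 1 was 3.69. Among listed genes, the highest upstream replicate 1-high windows belonged to *HAP4*, the regulatory subunit of the activator of respiratory genes (XI:231151-231300, 320 bp upstream), and to *CIS3*, a cell wall mannoprotein (X:123151-123300, 230 bp upstream). *HAP4* had levels of 8.19 and 1.87 in *dst1∆* replicates 1 and 2 and 2.5 in naked DNA. *CIS3* had 7.55 and 0.383 (naked DNA 3.72), a ratio of 19.7 (13.8 to 29.0). At *PAT1*, an activator of mRNA decapping, the levels were 5.78 and 0.647 (naked DNA 3.63), a ratio of 8.93 (6.75 to 12.0). *JEN1*, a lactate and pyruvate carrier (5.41 and 1.13, naked DNA 3.94), *TPO1*, a polyamine transporter (5.17 and 1.08, naked DNA 3.56), and *HIS4*, of histidine synthesis (5.05 and 1.04, naked DNA 3.75), had ratios of 4.79 to 4.85. In these 3 promoters and that of *HAP4* replicate 2 was itself above average, as it was in 24 of all 1421 replicate 1-high windows. The choice allows this only where replicate 1 has a level of at least 4.

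The 6 highest replicate 1-high windows in gene bodies, 1 per gene, had levels close to those of the 6 highest upstream. Levels over all body and all upstream windows were not compared. The highest was in *MF(ALPHA)1*, the gene of the α-factor pheromone precursor (XVI:193951-194100, 345 bp from the TSS), with 7.51 and 1.40 in *dst1∆* replicates 1 and 2 and 3.79 in naked DNA. *MYO3*, a type I myosin (7.18 and 1.39, naked DNA 2.84), *OM45*, a protein of the outer mitochondrial membrane (5.87 and 1.32, naked DNA 2.96), *OPI1*, a repressor of phospholipid genes (5.32 and 0.970, naked DNA 3.63), and *MNN4*, of cell wall mannan phosphorylation (5.10 and 0.862, naked DNA 3.83), followed the same order of libraries. *ABP1*, an actin-binding protein, had the widest gap of these genes, with 5.37 and 0.251 (naked DNA 3.76), a ratio of 21.4 (13.8 to 34.8). It also held 4 replicate 1-high windows in its body, the most of any gene together with *TPO1*, which had 2 upstream and 2 in the body. In all, 360 genes (18.3%) had a replicate 1-high window in the body.

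Where replicate 2 had no read, the highest levels in replicate 1 were 3.94 at XV:384751-384900 (381 reads, naked DNA 450), 2.25 at IX:127801-127950 in *SIM1*, a cell wall protein related to aging (217 reads, naked DNA 496), and 1.65 at XII:329401-329550 (159 reads, naked DNA 489). All of them lay above 3 in naked DNA.

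Among listed genes, the highest upstream replicate 2-high window was that of *GLO1*, glyoxalase I (XIII:262801-262950, 175 bp upstream), with levels of 1.26 and 5.50 in *dst1∆* replicates 1 and 2 and 1.12 in naked DNA. *VID30*, a subunit of the ubiquitin ligase that degrades gluconeogenic enzymes (VII:69301-69450, 258 bp upstream), had 0.663 and 4.71 (naked DNA 0.497), a ratio of 7.10 (5.44 to 9.40). *CYB2*, the mitochondrial lactate dehydrogenase, had 1.09 and 4.55 (naked DNA 2.59). *UBP12*, a ubiquitin protease, had 0.600 and 3.94 (naked DNA 0.337), and *LAG2*, an inhibitor of SCF ubiquitin ligases, had 0.870 and 4.0 (naked DNA 0.551), 30 bp before its TSS. *YBL083C*, for which no role is given here, had 0.932 and 4.47 (naked DNA 0.451). Replicate 1 was above naked DNA at all of these promoters except that of *CYB2*.

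Among windows called body, the highest replicate 2-high window was assigned to *ZNF1*, a zinc cluster regulator (VI:31651-31800, 1.21 and 7.12 in *dst1∆* replicates 1 and 2, naked DNA 1.89). It lay 3509 bp from the TSS and counts as body only by the listed polyadenylation site, so it need not lie in the coding part of *ZNF1*. The next was in *SSA1*, a cytosolic Hsp70 chaperone (I:141301-141450, 0.870 and 4.26, naked DNA 0.887). *SSA1* has a near-identical copy elsewhere in the genome, and only reads placed unambiguously were kept. *CLA4*, a p21-activated kinase (0.901 and 3.89, naked DNA 0.268), *YPL264C* (0.507 and 3.89, naked DNA 0.405), *IDS2*, named for its interaction with the meiotic kinase Ime2 (0.859 and 3.86, naked DNA 0.352), and *SKP2*, an F-box protein (0.880 and 3.78, naked DNA 0.780), came next. *YPL264C* had the widest gap, a ratio of 7.67 (5.67 to 10.6). Of these genes *IDS2*, *SKP2*, *SSA1* and *YPL264C* had the window within the first 310 bp. In all, 237 genes (12.0%) had a replicate 2-high window in the body, and *CHO1*, phosphatidylserine synthase (3 upstream and 1 in the body), and *ORC5*, a subunit of the origin recognition complex (4 in the body), held the most windows.

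**Figure D5:**
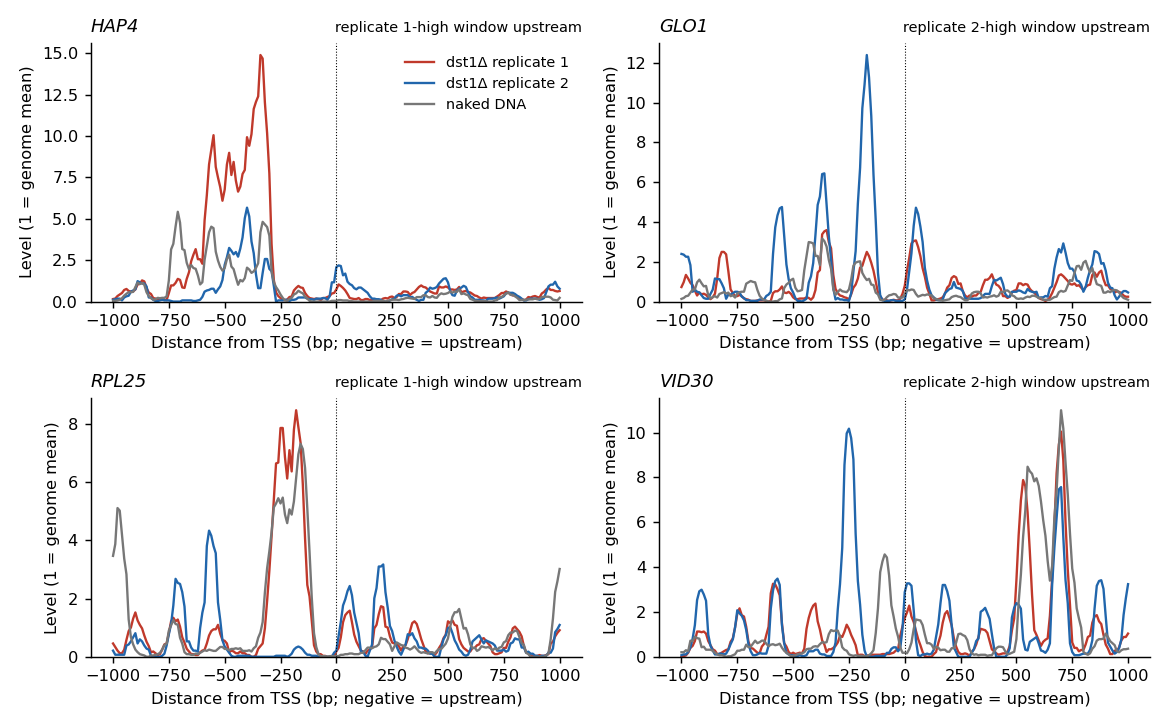
Level (1 = genome mean, smoothed over 51 bp) against the distance from the TSS (bp, negative upstream) at *HAP4* and *RPL25*, with replicate 1-high windows (left), and at *GLO1* and *VID30*, with replicate 2-high windows (right), in *dst1∆* replicate 1 (red), *dst1∆* replicate 2 (blue) and naked DNA (grey). *HAP4* and *GLO1* had the highest upstream windows of their directions among listed genes, and *RPL25* and *VID30* were picked after their values were seen. Upstream of *RPL25*, replicate 1 reaches 8.46 at 180 bp and naked DNA 7.31 at 160 bp with replicate 2 near 0, while upstream of *VID30* replicate 2 peaks at 10.2 at 250 bp, where replicate 1 is at 1.25 and naked DNA at 0.112.

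The numbers of windows and the list of windows depended on how repeated reads were treated. With 1 read per strand position, 925 replicate 1-high and 223 replicate 2-high windows were found, of which 486 and 192 were among those described above. In windows of 300 bp the numbers were 464 and 346. With levels relative to the median window, 10.5% of ribosomal protein genes had a replicate 1-high window upstream (3.96 to 21.5%), against 6.49% of all listed genes. With a naked DNA level of at most 2, 5.26% of them had one (1.1 to 14.6%), against 3.5% of all listed genes. At both settings the excess was within counting error. They are not separate checks, since both tighten the naked DNA limit. The median naked DNA window held 54 counted reads and the mean window 131, so a limit of 4 is stricter relative to the median.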

How the data were processed

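The members and gene lists were chosen with earlier results of these data known. The authors aligned single reads to sacCer2 with GEM and kept unambiguous ones. In the deposited files replicates are separate and repeated reads are still present; here they were limited to 10 per strand position. The deposited files give the position and strand of each read and a constant display score, which was not used. Mitochondrial reads were left out. Level, window and direction are defined in the report, and coordinates are sacCer2, counted from 1. TSS positions and lists of ribosomal protein, Rap1, Abf1, Reb1, fragile or asymmetric promoter nucleosome, TATA and highly transcribed genes came from the supplementary tables of the study, and those of glycolytic, heat shock and histone genes were written by hand. Symbols were taken from RefSeq (R64) for 1959 of 1971 genes. Named genes were the 6 with the highest window upstream and in the body per direction, the windows at the limit, the 4 longest runs (the 2-window run among them is not described), the highest windows without a read in the other replicate, and listed genes with an upstream window. Intervals of ratios are conditional exact binomial intervals. Steps were tested on simulated reads with planted windows. Python 3.11.15, numpy 2.4.6, pandas 2.3.3 and scipy 1.17.1 were used. No sequence of the build was used here.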

Additional observations from a re-analysis of the deposited data

Results flagged for a closer look

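The deposited file of *dst1∆* replicate 2 contained 1285 mitochondrial reads (0.0142% of its reads), while the files of *dst1∆* replicate 1 and of naked DNA contained 0. These reads entered no comparison.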

How the results depend on the processing

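The 8 counts and shares (windows per direction, percent upstream, percent of ribosomal protein genes, percent with naked DNA below 0.1) were recomputed under 10 alternative settings. Of 80 values, 56 stayed within 1.5 times the count or within the counting interval of the share, and 24 did not; the cause was not tested. With 1 read per strand position, there were 925 replicate 1-high and 223 replicate 2-high windows, with 32.6% and 20% upstream, and 0% of the replicate 1-high ones had naked DNA below 0.1. Without a limit on repeats, there were 2663 replicate 2-high windows, 23.5% of them with naked DNA below 0.1. With levels relative to the median, 19.9% of replicate 1-high windows were upstream and 10.5% of ribosomal protein genes had one, and the shares with naked DNA below 0.1 were 0.505% and 16%. With a naked DNA level of at most 2, 631 replicate 1-high windows were found, 24.1% upstream and 3.8% with naked DNA below 0.1, and 5.26% of ribosomal protein genes had one. With naked DNA from 0.1 to 4, the shares below 0.1 were 0% by construction. In windows of 300 bp, 464 replicate 1-high and 346 replicate 2-high windows were found, 48.7% and 17.7% upstream and 0% and 21.4% with naked DNA below 0.1. Without the chromosome ends, 28.4% of replicate 2-high windows were upstream. Tiling from 75 bp moved no value beyond its limit, but 43.6% of replicate 1-high and 71.5% of replicate 2-high windows overlapped a window called again; after thinning the counted reads of each library to the smallest total, 94.7% and 93.6% were called again. No paired analysis was possible because only 1 naked DNA library was analysed. Neither *dst1∆* replicate could be left out, since the choice needs both.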
